A study of Mus musculus with 384 samples.

Results

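Macrophages that lack Myd88 were followed for 4 h after lipopolysaccharide (LPS), the outer membrane component of Gram-negative bacteria that is sensed by Toll-like receptor 4. The members are the wells of the Myd88 KO plates KO1 and KO2 whose only ligand is LPS, at 0.5, 1, 1.5, 2, 2.5, 3 and 4 h: 14 wells, 1 per plate and time, of 384 wells in the series. The wells lysed at 0 h, 12 per plate, were the reference. CPM ranges were set against those of the same plate, while the tests compared means over both plates, with no plate term. Beside the members stand 28 KO wells given Pam3Cys or CpG at the same times, 14 WT wells given LPS, and 24 time 0 wells of each genotype. Wells that received LPS together with MDP were not used.

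All groups were bone marrow-derived macrophages of male C57BL/6 mice aged 13 weeks, either Myd88 KO or WT. All cells, time 0 wells included, had been transduced on day 4 with a pool of reporter viruses and replated into 96-well plates on day 9. RNA was read as 3′ digital gene expression, so the values are tag counts per gene, given here as CPM, the tag count scaled to a common total per well. Each genotype had its own 2 plates, so genotype cannot be told apart from plate. The labels do not say whether the 2 plates hold separate mice or cultures, and p-values therefore measure only the spread between plates, which may be technical.

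Tlr4 senses LPS with its co-receptors Cd14 and Md-2 (Ly96) and signals along a pair of adaptor routes. At the cell surface it uses Myd88, which leads to NF-κB and MAP kinases; from endosomes it uses Trif (Ticam1) with the bridging adaptor Tram (Ticam2), which leads to the interferon regulatory factor Irf3 and also to NF-κB. Irf3 targets include type I interferon and chemokines such as Cxcl10, and secreted interferon then acts through its receptor and factors such as Irf9 on a second set of antiviral genes. Pam3Cys (a Tlr2 ligand) and CpG DNA (a Tlr9 ligand) depend on Myd88 in macrophages.

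Myd88 was counted at 0 to 31.9 CPM in the 7 KO1 LPS wells and at 0 to 59.3 CPM in the 7 KO2 LPS wells, against 25.9 to 113 CPM in the WT1 LPS wells and 9.23 to 97.5 CPM in the WT2 LPS wells, so the ranges overlapped and transcript tags remained. Whether the counted 3′ tags lie outside the deleted part is not given in the sources used here, so this level checks the labels only in part. All 10 macrophage markers were counted, and their sum was 6309 to 8348 CPM in KO LPS wells, against 6446 to 9381 CPM in KO time 0 wells. The summed neutrophil markers (8 of 9 in the table) were at 100 to 281 CPM in KO LPS wells, against 0 to 264 CPM in KO time 0 wells, with Elane, Mpo and Retnlg at 0 in all LPS wells. The KO LPS wells were the shallower ones, with 159329 to 313717 counts (median 185638.5), against a median of 387870.0 in KO time 0 wells, 356411.5 in KO Pam3Cys and CpG wells and 339900.5 in WT LPS wells. Drawn down to 150000 counts, they still held fewer genes, a median of 7313 against 8364 at time 0; LPS and depth cannot be told apart here. The part of depth in the results was not tested; values of LPS-free wells that are also below the time 0 median in depth, labelled FLA on KO1 and R848 on KO2, are given beside the results that they touch. Their depths do not match those of the LPS wells: FLA wells held 71720 to 350196 counts (median 241767), against a median of 199043 in KO1 LPS wells, and R848 wells 83325 to 118731 (median 103948), against a median of 185217 in KO2 LPS wells. In bulk wells fewer cells and less RNA per cell cannot be told apart.

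The response began within 0.5 h and widened until 4 h. At 0.5 h, 33 of 8307 tested genes were higher than at time 0 (0.397%) and none was lower (edgeR quasi-likelihood test, Benjamini-Hochberg adjusted p under 0.05, as in all counts below); 296 genes passed an unadjusted p of 0.05 there, and DESeq2 called 41 higher and 0 lower. At 1 h, 64 genes were higher (0.77%) and 40 lower (0.482%), and at 1.5 h 73 were higher (0.879%) and 41 lower (0.494%). At 2 h, 100 genes were higher (1.2%) and 51 lower (0.614%), and at 2.5 h 114 were higher (1.37%) and 74 lower (0.891%). The count then grew to 202 higher (2.43%) and 107 lower (1.29%) at 3 h, and to 214 higher (2.58%) and 101 lower (1.22%) at 4 h. Over all 7 times in 1 test, 728 genes changed (8.76%).

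The median log2 change of all genes was -0.06 at 0.5 h and between -0.20 and -0.25 from 1 to 4 h. With DESeq2's size factors in place of the TMM scaling it was 0.00 at 0.5 h and -0.12 at 4 h, and the split of calls moved towards higher genes: 77 higher and 30 lower at 1 h, 97 and 31 at 1.5 h, 126 and 32 at 2 h, and 148 and 61 at 2.5 h. The lower calls at the first times rested on plates. Without KO1, 31 genes were higher and 30 lower at 0.5 h, and 83 higher and 184 lower at 1 h; without KO2, 56 were higher and 7 lower at 1 h. Set against only the time 0 well labelled LPS, 15 genes were higher and 2 lower at 0.5 h.

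**Figure D1:**
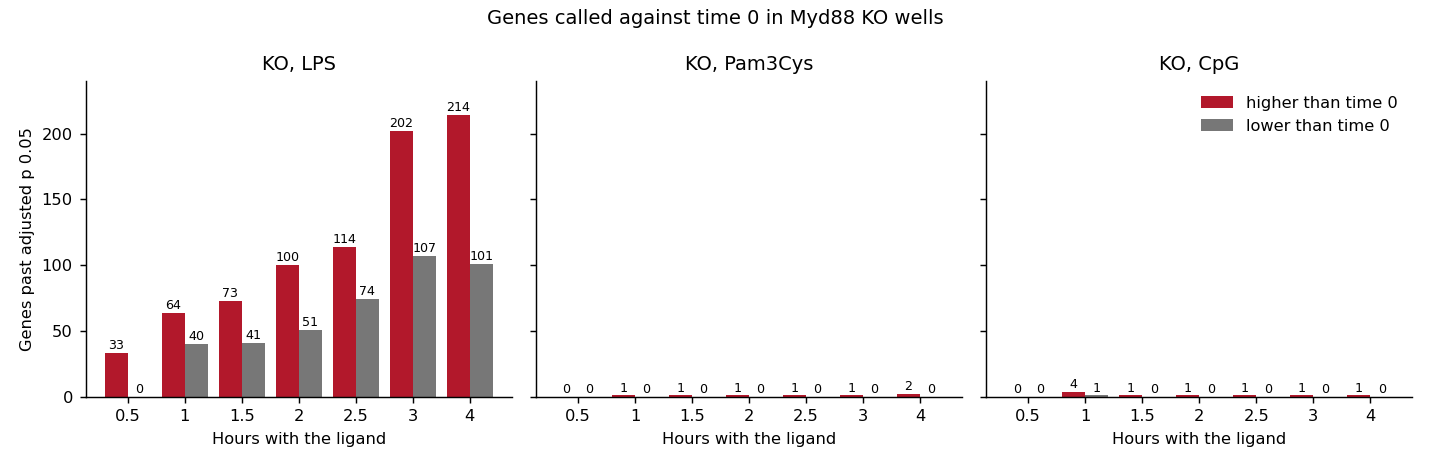
Number of genes higher (red bars) and lower (grey bars) than at time 0, by hours with the ligand, in KO wells given LPS, Pam3Cys or CpG (edgeR, adjusted p under 0.05, 8307 genes tested). The LPS bars grow from 33 higher genes at 0.5 h to 214 at 4 h, while the Pam3Cys and CpG bars stay between 0 and 4 genes.

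The 33 genes that rose at 0.5 h held 11 immediate early genes and 11 NF-κB targets. Of 21 tested immediate early genes, 11 rose at 0.5 h (Fos, Jun, Junb, Egr1, Ier2, Ier3, Btg2, Klf6, Dusp1, Dusp2 and Zfp36), 6 at 1 h, 2 at 1.5 h and 1 at 2 h. Their median log2 change was 2.47 at 0.5 h, where that of all genes was -0.06, and 0.21 at 4 h (0.34 with 1 gene without counts in the LPS wells at its bound of 3 counts), where that of all genes was -0.22. Of 39 tested NF-κB targets, 11 rose at 0.5 h (median log2 change 1.08), 17 at 1 h, 22 at 1.5 h and 23 at 2 h. Of all genes, 0.397%, 0.77%, 0.879% and 1.2% were higher at these times.

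Egr1, a zinc finger factor induced by growth and stress signals, was at 1033 CPM in KO1 and 357 CPM in KO2 after 0.5 h, against 3.23 to 46.4 CPM (median 25.8) in the 12 KO1 time 0 wells and 0 to 45.9 CPM (median 27.2) in those of KO2. Both wells lay far above their time 0 wells, with a log2 change of 4.99 (SE 0.96, adjusted p = 0.0037, edgeR). By 1.5 h Egr1 was at 6.28 CPM in KO1 and 48.5 CPM in KO2, back within the time 0 range on KO1 and just above it on KO2. Fos, a partner in the AP-1 factor, was at 1371 CPM in KO1 and 870 CPM in KO2 at 0.5 h, against 74.4 to 238 CPM and 133 to 228 CPM at time 0, a log2 change of 3.03 (SE 0.52, adjusted p = 0.00029). It was already within 0.71 log2 units (SE 0.51, adjusted p = 0.69) of time 0 at 1 h. Dusp2, a phosphatase that switches off MAP kinases, was at 736 and 376 CPM at 0.5 h, against 2.73 to 45.5 CPM and 0 to 18.2 CPM at time 0, and had a log2 change of 5.66 (SE 0.81, adjusted p = 2.6e-05). Unlike Egr1, Dusp2 was again called at 2.5, 3 and 4 h, when its log2 changes were 2.99, 3.26 and 3.19.

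Nfkbia, the IκBα inhibitor that holds NF-κB in the cytoplasm and is itself its target, was called at all 7 times. In KO1 it was at 10522, 6785, 5837, 4799, 3051, 3552 and 3753 CPM from 0.5 to 4 h, with 518 to 817 CPM in the time 0 wells. In KO2 it was at 13703, 5718, 8992, 6302, 4248, 3282 and 2980 CPM, with 511 to 729 CPM at time 0. No LPS well overlapped the time 0 wells, and the log2 change was 4.38 at 0.5 h (SE 0.25, adjusted p = 4.5e-29) and 2.65 at 4 h (SE 0.23, adjusted p = 8.5e-17). The fall between the early wells (0.5 and 1 h) and the late wells (2.5, 3 and 4 h) was itself past the threshold, with a log2 difference of -1.29 (SE 0.14, adjusted p = 2.3e-12). Tnfaip3, the A20 enzyme that takes ubiquitin off NF-κB signalling proteins, peaked later, at 375 CPM in KO1 and 477 CPM in KO2 after 1 h, against medians of 40.3 and 62.2 CPM at time 0. Its log2 change was 3.05 at 1 h (SE 0.43, adjusted p = 3.7e-07) and 1.31 at 4 h (SE 0.44, adjusted p = 0.083).

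Among secreted proteins, the neutrophil chemokines Cxcl1 and Cxcl2 and tumour necrosis factor were highest at the first time measured, while the neutrophil chemokine Cxcl3 was first called at 1.5 h. Cxcl2 was at 1913 CPM in KO1 and 1384 CPM in KO2 after 0.5 h, against 0 to 106 CPM (median 26.5) and 4.77 to 92.1 CPM (median 37.1) at time 0. The log2 change was 5.76 (SE 0.55, adjusted p = 2.5e-08), shrank to 2.75 at 2 h (SE 0.54, adjusted p = 0.0019), and at 4 h was 1.72 (SE 0.57, adjusted p = 0.094), when the wells held 104 and 81.0 CPM and lay within the time 0 ranges. Cxcl1, its neighbour, was at 242 CPM in KO1 and 285 CPM in KO2 after 0.5 h, against at most 13.7 and 46.5 CPM at time 0. Cxcl1's log2 change was 5.34 (SE 0.67, adjusted p = 6.8e-07). At 1 h its wells parted, at 89.2 CPM in KO1 and 5.88 CPM in KO2. Its log2 change of 3.06 there (SE 0.73, adjusted p = 0.015) was -0.46 without KO1.

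Tnf was at 481 CPM in KO1 and 323 CPM in KO2 after 0.5 h, against 21.2 to 94.4 CPM (median 43.1) and 7.80 to 149 CPM (median 56.7) at time 0, a log2 change of 3.03 (SE 0.41, adjusted p = 9.7e-08). It was called at 1 h too (2.34, SE 0.41, adjusted p = 5.3e-05) and at no later time. At 4 h Tnf was at 33.5 CPM in KO1 and 16.2 CPM in KO2, inside the time 0 ranges, and the late wells were below the early ones by a log2 difference of -2.73 (SE 0.31, adjusted p = 1.8e-11). The monocyte chemokine Ccl2 peaked at 1.5 h in KO1 (427 CPM) and at 1 h in KO2 (853 CPM), against time 0 medians of 45.3 and 50.6 CPM. The related Ccl4 was called at all 7 times: its log2 change was 3.01 at 1 h (SE 0.38, adjusted p = 3.4e-07) and 2.05 at 4 h (SE 0.37, adjusted p = 9.5e-05), with 458 CPM in KO1 and 508 CPM in KO2 at 4 h, against 45.2 to 184 CPM and 69.2 to 389 CPM at time 0.

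**Figure D2:**
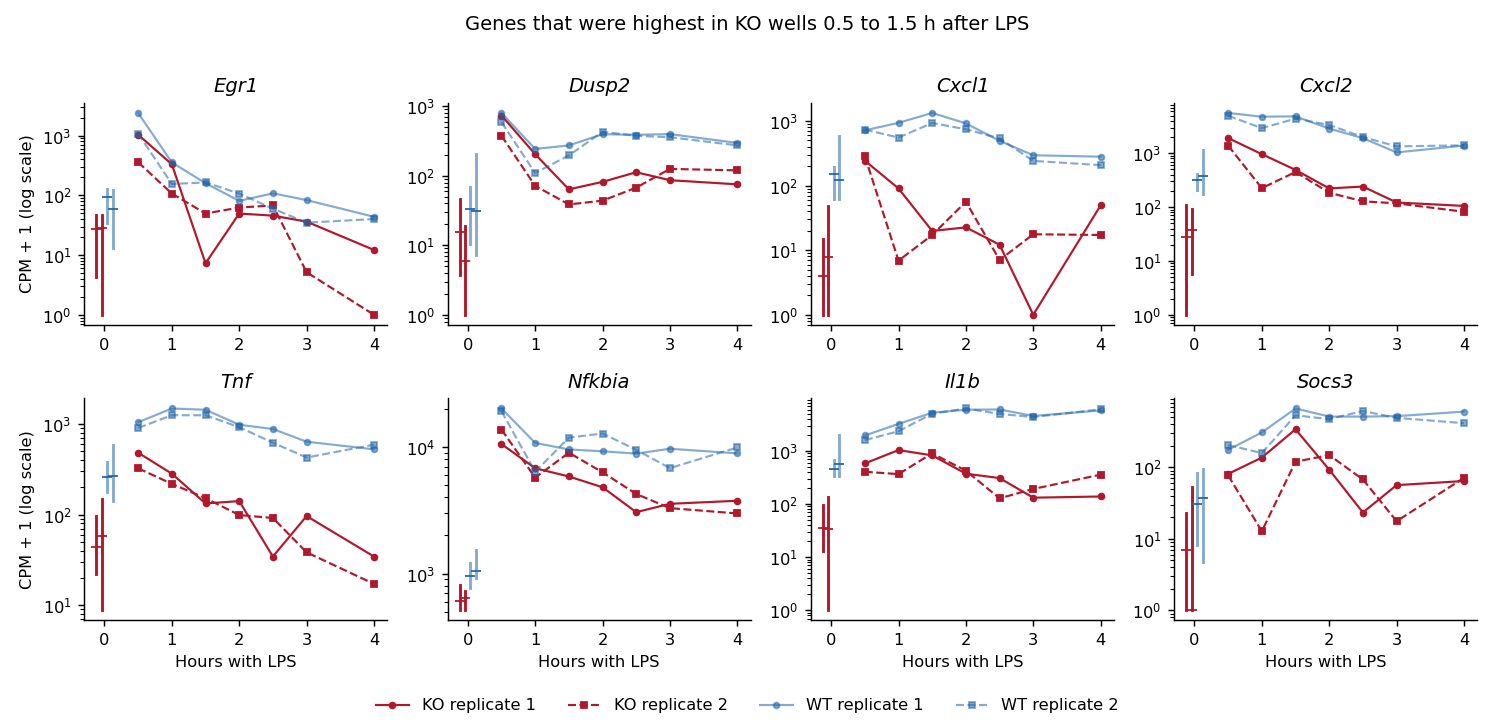
CPM plus 1 on a log axis by hours after LPS for 8 genes that rose early in KO wells, with 1 point per well, KO plates in red and WT plates in blue (solid line for replicate 1, dashed for replicate 2), and at 0 h the range and median of the 12 time 0 wells of each plate. Egr1 and Tnf are back within the time 0 range by the last times, while Nfkbia stays above it at all 7 times.

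The promoters of Cxcl2 and Nfkbia are shown as examples of early risers that hold NF-κB matches, while those of Dusp2, Fos and Il1b held none. Capitals mark matches, on either strand, to the NF-κB motif of GGGA and CC parted by 4 bases of any kind. The sequences are RefSeq promoters of GRCm38.p6, 250 bases before to 50 after the start site, 5′ to 3′ along the gene: Cxcl2 at chr5:90903649-90903948 on the plus strand, and Nfkbia at chr12:55492598-55492897 on the minus strand. In Cxcl2 a pair of overlapping matches on opposite strands begin 97 and 96 bases before the start site. In Nfkbia the matches begin 212 and 29 bases before it.
Cxcl2: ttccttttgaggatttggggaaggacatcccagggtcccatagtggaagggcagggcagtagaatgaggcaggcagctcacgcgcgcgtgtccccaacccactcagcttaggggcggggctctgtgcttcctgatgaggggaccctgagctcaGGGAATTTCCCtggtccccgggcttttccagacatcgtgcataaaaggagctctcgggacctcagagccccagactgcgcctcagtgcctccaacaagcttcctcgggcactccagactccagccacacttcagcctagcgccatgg
Nfkbia: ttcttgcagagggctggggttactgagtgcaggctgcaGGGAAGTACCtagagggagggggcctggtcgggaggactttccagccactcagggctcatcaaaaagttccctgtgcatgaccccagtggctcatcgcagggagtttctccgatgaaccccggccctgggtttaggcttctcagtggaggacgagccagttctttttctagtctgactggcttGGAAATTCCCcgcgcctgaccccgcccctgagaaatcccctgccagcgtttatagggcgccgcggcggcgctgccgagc

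A second group peaked between 1 and 2 h. Csrnp1, a nuclear protein encoded by an immediate response gene, was at 228 CPM in KO1 and 241 CPM in KO2 after 1 h, against at most 12.8 and 65.9 CPM at time 0, and its log2 change was 4.94 (SE 0.81, adjusted p = 1.7e-05). Errfi1, an inhibitor of the epidermal growth factor receptor, was at 161 and 159 CPM at 1 h, against at most 19.4 and 32.3 CPM at time 0. Errfi1's log2 change was 4.44 (SE 0.72, adjusted p = 1.2e-05). It was at 11.2 CPM in KO1 and 0 CPM in KO2 at 2.5 h and at 4 h, so this rise ended within the course.

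Il1b, which encodes the precursor of interleukin 1β, was at 580, 1035, 822, 372, 307, 131 and 138 CPM in KO1 from 0.5 to 4 h, against 12.1 to 96.8 CPM (median 34.6) at time 0. In KO2 it was at 404, 365, 900, 423, 127, 191 and 356 CPM, against 0 to 133 CPM (median 33.1) at time 0. Il1b was called at all 7 times, with a log2 change of 4.63 at 1.5 h (SE 0.62, adjusted p = 1.2e-05) and 2.91 at 4 h (SE 0.61, adjusted p = 0.0027). The KO2 well at 2.5 h overlapped the time 0 wells of its plate. Socs3, a suppressor of cytokine receptor signalling, was at 339 CPM in KO1 and 119 CPM in KO2 at 1.5 h, against at most 22.2 and 51.2 CPM at time 0 (log2 change 5.86, SE 0.69, adjusted p = 1.6e-08), and was also called at all 7 times.

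Il12b, the p40 chain of interleukins 12 and 23, had 0 counts in both wells at 0.5 h and was at 56.5 CPM in KO1 and 167 CPM in KO2 at 1.5 h, against at most 12.9 and 11.3 CPM at time 0. Il12b's log2 change was 4.94 (SE 0.71, adjusted p = 6.3e-06). Its 4 h wells held 74.4 CPM in KO1 and 32.4 CPM in KO2, above all time 0 wells of their plates. The call at 2.5 h (log2 change 3.24, SE 0.87, adjusted p = 0.029) rested on KO1, with 66.9 CPM in KO1 and 0 CPM in KO2, and the change was -4.15 without KO1.

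Several cytokines and enzymes of the LPS response were at 0 or passed the threshold at no single time. Il6 had 0 counts in all 14 KO LPS wells, against 3.23 CPM at most in KO1 and 26.9 CPM at most in KO2 time 0 wells; 0 counts allow up to 1.03 CPM over the 14 wells, by 3 counts over their total and for counting error only. In WT LPS wells Il6 was at 106 to 118 CPM at 3 and 4 h on WT2 and at 91.6 to 114 CPM on WT1. Nos2, the inducible nitric oxide synthase, had 0 counts in the 14 KO LPS wells and in the KO time 0 wells, against 20 counts in the WT1 LPS wells and 18 in the WT2 LPS wells, and was too low for the test. Il10 was counted in both plates at 0.5 h (41.4 and 19.0 CPM) and 1 h (17.8 and 23.5 CPM), was not past the threshold at either time (adjusted p = 0.26 and 0.18), and had 0 counts from 1.5 h on; it did pass the test over all times (adjusted p = 0.0057) and that of late against early wells (adjusted p = 0.0032). Ifnb1 reached 54.0 CPM in KO2 at 4 h with 0 CPM in KO1, and passed the threshold at no time (adjusted p = 0.55 at 4 h). Ptgs2, the inducible prostaglandin synthase, was at most 28.6 CPM in KO1 and 59.3 CPM in KO2 and passed the threshold at no single time, though it passed the test over all times (adjusted p = 0.042).

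The interferon-linked lists had their highest counts of calls at 3 or 4 h, though Dtx3l was highest before, at 2.5 h by mean level. Of 12 tested Irf3 targets, 0, 2, 3, 8, 8, 11 and 11 rose at 0.5, 1, 1.5, 2, 2.5, 3 and 4 h; their median log2 change was 0.23 at 0.5 h and 3.59 at 4 h. At 0.5 h, 4 of them passed an unadjusted p of 0.05 and DESeq2 called 0. Of 40 tested genes of the secondary interferon response, 0, 1, 1, 3, 13, 22 and 32 rose at the same times, and their median log2 change was 0.10 at 0.5 h, with 4 past an unadjusted p of 0.05 and 0 called by DESeq2, and 2.08 at 4 h. The late wells were above the early wells for 11 of the 12 Irf3 targets and for 29 of the 40 secondary genes, with none lower, where 286 of all genes were higher (3.44%) and 299 lower (3.6%). With the wells of each window summed, 297 were higher and 144 lower. Against time 0, the share of all genes that were higher ran from 0.397% at 0.5 h to 2.58% at 4 h.

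Rsad2, the antiviral enzyme viperin, was at 1434, 1874, 2146, 5715, 10898, 27793 and 27184 CPM in KO1 from 0.5 to 4 h, with 973 to 2561 CPM in the time 0 wells. In KO2 it was at 1070, 2347, 2575, 6321, 11491, 25083 and 26212 CPM, with 546 to 4063 CPM at time 0. The wells overlapped time 0 at 0.5, 1 and 1.5 h on both plates and lay above all time 0 wells from 2 h on. The log2 change was 2.46 at 2 h (SE 0.35, adjusted p = 1.8e-05) and 4.70 at 4 h (SE 0.39, adjusted p = 1.1e-10). Its neighbour Cmpk2, a mitochondrial nucleotide kinase, was at 4151 CPM in KO1 and 2899 CPM in KO2 at 4 h, against 54.4 to 229 CPM and 43.5 to 450 CPM at time 0 (log2 change 4.88, SE 0.46, adjusted p = 2.0e-10). Their time 0 ranges held a depth difference: in the 5 KO time 0 wells under 250000 counts Cmpk2 was at 156 to 450 CPM, against 43.5 to 227 CPM in the 19 deeper ones.

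Among chemokines in the list of Irf3 targets, Cxcl10, which attracts T cells, was called from 1 h on. It was at 593 CPM in KO1 and 759 CPM in KO2 at 1 h and at 2842 and 2905 CPM at 4 h, against 131 to 506 CPM (median 260) and 114 to 905 CPM (median 198) at time 0. Its log2 change was 1.47 at 1 h (SE 0.28, adjusted p = 0.00039), when the KO2 well overlapped time 0, and 3.68 at 4 h (SE 0.30, adjusted p = 6.4e-19), when neither well did. In the 5 KO time 0 wells under 250000 counts Cxcl10 had a median of 465 CPM, against 218 CPM in the 19 deeper ones. Medians were also higher there for Ifit1 (845 against 563 CPM), Isg15 (92.9 against 40.7), Tnf (123 against 41.8) and Tnfaip3 (129 against 39.9). Those of Ccl5 (61.4 against 67.6) and Irf7 (140 against 173) were lower. Ccl5, a chemokine for T cells and monocytes, was at 159 CPM in KO1 and 47.5 CPM in KO2 at 0.5 h and reached 2139 and 3034 CPM at 4 h, against 37.4 to 152 CPM and 4.53 to 223 CPM at time 0. It was called from 1.5 h on, and its log2 change of 5.30 at 4 h (SE 0.37, adjusted p = 5.2e-22) was 2.54 above that of the middle wells of 1.5 and 2 h (SE 0.27, adjusted p = 6.5e-12).

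Ifit1, which binds foreign RNA caps, was at 551, 1199, 960, 1379, 1863, 4989 and 4159 CPM in KO1 from 0.5 to 4 h, against 455 to 778 CPM at time 0. In KO2 it was at 509, 1624, 1185, 2070, 3225, 4745 and 4611 CPM, against 268 to 2784 CPM at time 0. Its log2 change was 1.30 at 1 h (SE 0.28, adjusted p = 0.0025), 0.90 at 1.5 h (SE 0.28, adjusted p = 0.095) and 3.06 at 4 h (SE 0.29, adjusted p = 8.1e-14), and its wells stood apart from time 0 on both plates at 2.5, 3 and 4 h. Isg15, the ubiquitin-like interferon protein, was called from 1.5 h on and was at 547 CPM in KO1 and 664 CPM in KO2 at 4 h, against at most 81.7 and 132 CPM at time 0. Isg15's log2 change was 3.90 (SE 0.48, adjusted p = 3.2e-10).

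The promoters of Cxcl10 and Ifit1 are shown as examples of slower risers that hold a response element core, while those of Cmpk2, Ifit2 and Oasl1 held none; they are again from RefSeq GRCm38.p6 and 5′ to 3′ along the gene: Cxcl10 at chr5:92348840-92349139 on the minus strand and Ifit1 at chr19:34640639-34640938 on the plus strand. Capitals mark matches on either strand to the core of the interferon-stimulated response element (GAAA and GAAA parted by 2 bases of any kind), to the same NF-κB motif and to the AP-1 motif (TGANTCA). Cxcl10 holds a response element core 213 bases before its start site, NF-κB matches 159 and 103 bases before it, the second one on both strands, and an AP-1 match 74 bases before it. Ifit1 holds response element cores 104 and 85 bases before its start site and no NF-κB match.
Cxcl10: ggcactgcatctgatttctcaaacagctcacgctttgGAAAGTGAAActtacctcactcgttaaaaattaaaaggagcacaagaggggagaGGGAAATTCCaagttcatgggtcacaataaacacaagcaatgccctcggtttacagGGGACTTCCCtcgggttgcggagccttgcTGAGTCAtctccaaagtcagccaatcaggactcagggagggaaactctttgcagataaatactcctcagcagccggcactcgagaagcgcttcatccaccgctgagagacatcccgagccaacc
Ifit1: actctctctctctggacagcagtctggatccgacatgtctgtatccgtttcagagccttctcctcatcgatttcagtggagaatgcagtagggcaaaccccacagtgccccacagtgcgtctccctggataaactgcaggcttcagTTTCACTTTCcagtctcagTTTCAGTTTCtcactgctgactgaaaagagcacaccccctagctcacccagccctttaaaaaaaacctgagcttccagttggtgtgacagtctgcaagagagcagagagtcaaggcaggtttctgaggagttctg

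Among signalling genes of the interferon pathway, Irf1, a transcription factor of the interferon family, was at 284 CPM in KO1 and 233 CPM in KO2 at 0.5 h and at 338 and 329 CPM at 4 h, against 19.8 to 105 CPM and 18.0 to 116 CPM at time 0, and was called at all 7 times. The difference between its late and early wells did not pass the threshold (log2 difference 0.66, SE 0.29, adjusted p = 0.16). Of 11 tested signalling genes, 1 rose at each time to 2.5 h, 4 at 3 h and 5 at 4 h, among them Irf7 and Irf1. Of all genes, 2.43% were higher at 3 h and 2.58% at 4 h. Irf7, the factor that amplifies type I interferon, was at 536 CPM in KO1 and 605 CPM in KO2 at 4 h, against at most 235 and 225 CPM at time 0 (log2 change 2.01, SE 0.39, adjusted p = 9.2e-05), with an adjusted p of 0.0675 at 3 h. Stat2 was at 528 CPM in KO1 and 151 CPM in KO2 at 4 h, against at most 124 and 118 CPM at time 0. Stat2's log2 change was 2.78 (SE 0.58, adjusted p = 0.00067).

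In the secondary list, Ifi205 led at 1 h with 236 CPM in KO1 and 312 CPM in KO2, against at most 145 and 184 CPM at time 0, and reached 1685 and 1523 CPM at 4 h (log2 change 4.22, SE 0.32, adjusted p = 3.8e-21). The antiviral GTPase Mx1 was called from 2 h on and was at 617 CPM in KO1 and 524 CPM in KO2 at 4 h, against at most 122 and 184 CPM at time 0. Mx1's log2 change was 3.62 (SE 0.43, adjusted p = 7.3e-11). Gbp2, a guanylate-binding protein, was called only at 3 and 4 h, with 480 and 556 CPM at 4 h, against at most 151 and 266 CPM at time 0. Gbp2's log2 change was 3.25 (SE 0.46, adjusted p = 4.2e-08). The RNA sensor Ifih1 was at 729 CPM in KO1 and 475 CPM in KO2 at 4 h, against at most 126 and 138 CPM at time 0. Ifih1's log2 change was 3.09 (SE 0.38, adjusted p = 2.4e-10).

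**Figure D3:**
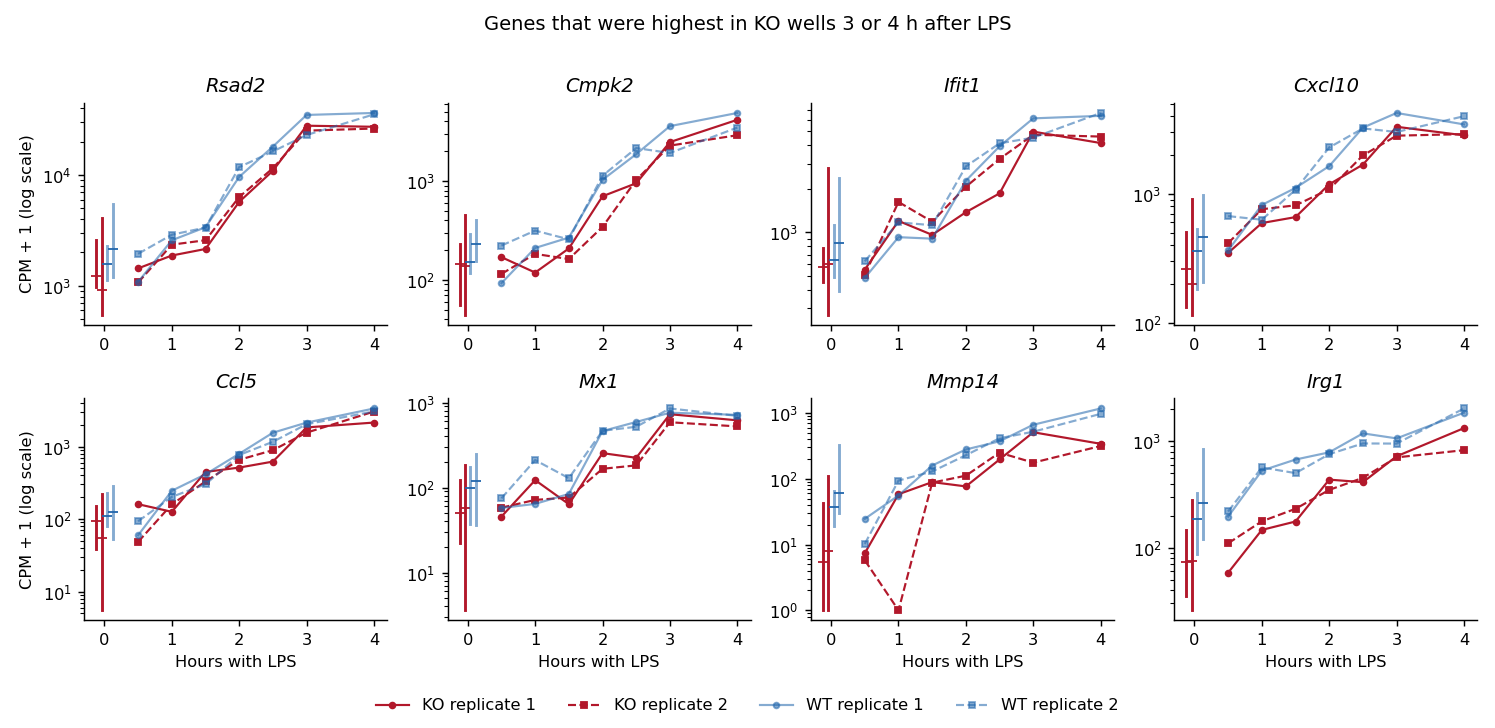
CPM plus 1 on a log axis by hours after LPS for 8 genes that rose late in KO wells, with 1 point per well, KO plates in red and WT plates in blue (solid line for replicate 1, dashed for replicate 2), and at 0 h the range and median of the 12 time 0 wells of each plate. In KO, Rsad2, Cmpk2, Ccl5 and Cxcl10 lie above all time 0 wells of both plates at 3 and 4 h.

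Outside the interferon lists, Irg1 and Slc2a6 were the called genes at 4 h among 15 tested genes of metabolism, whose median log2 change was 0.63. At that time 2.58% of all genes were higher and 1.22% lower. Irg1, the enzyme that makes itaconate, was at 57.4, 146, 176, 436, 413, 723 and 1332 CPM in KO1 and at 109, 176, 232, 349, 454, 706 and 826 CPM in KO2 from 0.5 to 4 h, against 34.6 to 145 CPM and 24.9 to 282 CPM at time 0. It was called from 1.5 h on, and at 4 h its log2 change was 4.01 (SE 0.39, adjusted p = 2.0e-14). Mmp14, a membrane-anchored collagenase, was at 338 CPM in KO1 and 313 CPM in KO2 at 4 h, against 0 to 42.0 CPM and 0 to 108 CPM at time 0. Mmp14's log2 change was 5.11 (SE 0.61, adjusted p = 1.0e-09). Clec4e, the mycobacterial glycolipid receptor Mincle, was called from 1 h on and at 4 h was at 900 CPM in KO1 and 1096 CPM in KO2, against at most 134 and 177 CPM at time 0. Clec4e's log2 change was 4.01 (SE 0.39, adjusted p = 3.6e-15).

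The co-stimulatory receptor Cd40 was at 476 CPM in KO1 and 486 CPM in KO2 at 4 h, against at most 33.7 and 102 CPM at time 0 (log2 change 4.56, SE 0.55, adjusted p = 1.1e-09), and was called from 1 h on. Icam1, the leukocyte adhesion ligand, reached its highest log2 change at 2 h (3.62, SE 0.41, adjusted p = 5.9e-11) and stayed at 454 CPM in KO1 and 340 CPM in KO2 at 4 h, against at most 109 and 164 CPM at time 0. The LPS co-receptor Cd14 was at 766 CPM in KO1 and 1204 CPM in KO2 at 4 h, against 209 to 368 CPM and 143 to 371 CPM at time 0. Cd14's log2 change was 1.89 (SE 0.30, adjusted p = 7.0e-07). It was the only called member of 4 tested LPS receptor genes at 4 h; Tlr4 had 29.8 CPM in KO1 and 10.8 CPM in KO2 there, against medians of 53.7 and 74.3 CPM at time 0 (log2 change -1.40, SE 1.01, adjusted p = 0.57). The interleukin 1 receptor antagonist Il1rn was called from 2.5 h on, with 290 and 286 CPM at 4 h, against at most 68.9 and 97.3 CPM at time 0. Il1rn's log2 change was 3.06 (SE 0.44, adjusted p = 6.3e-08).

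Several of the largest log2 changes at 3 and 4 h belonged to genes with few counts at time 0, though Ccl5, described above, was also among the largest at 4 h. Lipg, endothelial lipase, was at 33.5 CPM in KO1 and 97.2 CPM in KO2 at 4 h, against at most 6.45 and 2.26 CPM at time 0. Lipg's log2 change was 6.56 (SE 1.35, adjusted p = 0.00033). At 3 h it was at 40.2 CPM in KO1 and 0 CPM in KO2, and its log2 change there (4.75, SE 1.34, adjusted p = 0.021) was -1.14 without KO1. Ccl22, a chemokine of Ccr4-bearing T cells, was at 55.8 and 221 CPM at 4 h, against at most 9.92 and 30.0 CPM at time 0. Ccl22's log2 change was 5.28 (SE 1.38, adjusted p = 0.0095). Col27a1, a fibrillar collagen, was at 111 CPM in KO1 and 20.8 CPM in KO2 at 3 h, against at most 5.62 CPM and 0 CPM at time 0 (adjusted p = 0.0069); its time 0 wells held 3 counts in KO1 and 0 in KO2, too few for a fold change.

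Over all times, 330 genes rose at 1 time or more, and 293 of them also passed the test over all times. Taken by the time of their highest mean level, 21 of the 330 peaked at 0.5 h, 22 at 1 h, 21 at 1.5 h, 29 at 2 h, 23 at 2.5 h, 79 at 3 h and 135 at 4 h. The peak fell at the same time on both plates for 182 genes and within 1 step for 267. The share of the log2 change still present at 4 h had a median of 0.311 for genes peaking at 0.5 h, 0.460 at 1 h, 0.583 at 1.5 h, 0.610 at 2 h, 0.629 at 2.5 h and 0.805 at 3 h. In all, 81 of the 330 genes kept less than 0.5 of their highest log2 change. These figures describe genes chosen by the same contrasts and carry no test.

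Followed as a set, the 33 genes called at 0.5 h had median log2 changes of 3.03, 2.58, 2.11, 1.66, 1.29, 1.22 and 1.21 in KO wells from 0.5 to 4 h. The same 33 genes had 2.51, 2.19, 2.32, 2.07, 1.69, 1.45 and 1.45 in WT wells. The 214 genes called at 4 h had medians of 0.20, 0.68, 0.86, 1.14, 1.51, 2.12 and 2.50 in KO wells, and 0.10, 0.66, 0.84, 1.40, 1.85, 2.23 and 2.48 in WT wells. The KO values at the time of choice are fixed by the choice. Each log2 change is taken from the time 0 wells of its own genotype, which were lower in KO for 17 genes (0.205%; 0 were higher, and 126 passed an unadjusted p of 0.05 in either direction), among them Tnf, Cxcl1, Cxcl2, Il1b and Nfkbiz.

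Set against each other, the late and early wells split the lists, where 3.44% of all genes were higher late and 3.6% lower. None of the 21 immediate early genes was higher late and 14 were lower, while of 39 NF-κB targets 14 were higher late and 8 lower. The lower ones were Nfkbia, Nfkbiz, Tnf, Tnfaip3, Cxcl1, Cxcl2, Ccl2 and Ccl3. The higher ones held inhibitors and subunits of NF-κB (Nfkbie, Nfkb1, Nfkb2, Tnip1), surface receptors (Icam1, Cd40, Cd44, Clec4e), survival genes (Bcl2a1b, Bcl2a1d, Traf1, Sod2), Tnfaip2 and Src. Bcl2a1b and Bcl2a1d are near-identical copies, so the counts of each are uncertain. At 4 h, 186 genes were above the mean of 1.5 and 2 h (2.24%) and 43 below (0.518%); 10 of 12 Irf3 targets and 24 of 40 secondary genes were above, and none below. Isg20, an interferon-induced exonuclease, was at 104 CPM in KO1 and 124 CPM in KO2 at 4 h, against 12.6 and 16.2 CPM at 1.5 h and 0 CPM on both plates at 2 h (log2 difference from the middle wells 6.15, SE 1.33, adjusted p = 0.0014). With 0 CPM at 2 h the size of this difference is poorly determined. Isg20's log2 change at 4 h from time 0 was 3.43.

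**Figure D4:**
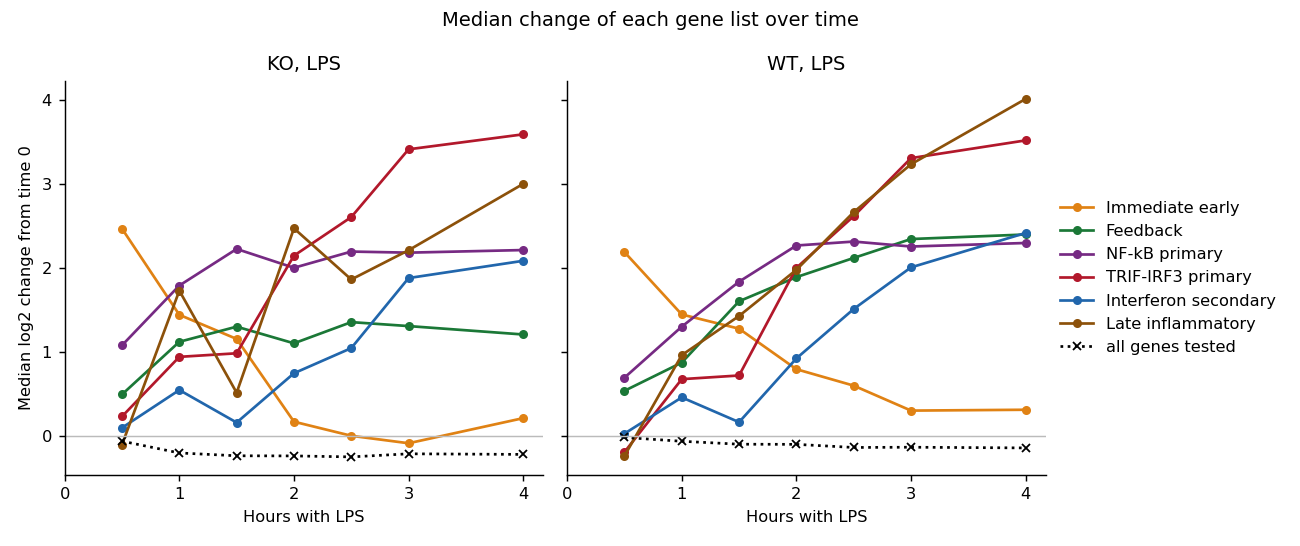
Median log2 change from time 0 by hours after LPS for 6 gene lists and for all 8307 genes, in KO wells (left) and WT wells (right). In KO wells the immediate early median goes down from 2.47 at 0.5 h, the NF-κB median stays between 2.00 and 2.23 from 1.5 h on, and the Irf3 target median climbs to 3.59 at 4 h.

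Counts of other lists were as follows. Of 11 tested late inflammatory genes, 5 rose at 4 h (Il1b, Il12b, Irg1, Mmp13 and Mmp14), where their median log2 change was 3.00 (3.08 with 1 gene without counts in the LPS wells at its bound). Of 17 tested feedback genes, 5 rose at 0.5 h (Socs3, Nfkbia, Tnfaip3, Zfp36 and Dusp1) and 4 at 4 h (Il1rn, Socs3, Nfkbia and Peli1), with none lower at either time. Of 13 tested co-stimulation and antigen presentation genes, 2 rose at 1 h (Cd40 and Cd83) and 4 at 4 h (Cd40, Cd83, Tap1 and Tapbp), where the list's median log2 change was 1.62. Of 26 tested cell cycle genes, 1 was higher at 2 h (Mki67), 1 at 3 h (Hmgb2) and 1 lower at 2.5 h, and no gene of 10 tested in cholesterol handling was called at any time. Of all genes, 0.397% were higher at 0.5 h, 0.77% at 1 h, 1.2% at 2 h, 2.43% at 3 h and 2.58% at 4 h. At 2.5 h 0.891% of all genes were lower. The single cell cycle calls are too few to be set against these shares.

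Of 13 tested genes in a list of transcription regulators put together as going down, Sox4, Maf and Mef2c were lower at 4 h, when 1.22% of all genes were. As the list was chosen with earlier results of these data known, falls within it are a description only. Sox4, a developmental transcription factor, was at 115 CPM in KO1 and 97.2 CPM in KO2 at 4 h, against 225 to 1299 CPM and 114 to 1520 CPM at time 0. Sox4's log2 change was -2.94 (SE 0.41, adjusted p = 1.3e-07). Its level moved with depth at time 0 as well, at 114 to 350 CPM in the 5 KO wells under 250000 counts and at 542 to 1520 CPM in the 19 deeper ones. Maf was at 164 CPM in KO1 and 351 CPM in KO2 at 4 h, against 534 to 727 CPM and 471 to 970 CPM at time 0. Maf's log2 change was -1.26 (SE 0.31, adjusted p = 0.0051). The monocyte chemokine receptor Ccr2 was at 26.0 and 37.8 CPM at 4 h, against 61.3 to 223 CPM and 40.9 to 267 CPM at time 0. Ccr2's log2 change was -2.13 (SE 0.63, adjusted p = 0.030).

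Of the 101 genes lower at 4 h, 11 had 0 counts in both wells, 17 had 1 to 3 counts and 73 had 4 or more. The FLA wells on KO1 and the R848 wells on KO2 hold no LPS; as their depths and ligands differ from those of the LPS wells, they do not measure depth at the level of the LPS wells. In the late LPS wells 212 genes were higher (2.55%) and 234 lower (2.82%) than time 0, against 13 higher (0.156%) and 402 lower (4.84%) in the FLA and R848 wells at the same times. Of the 212 higher genes, 178 were also higher in LPS wells than in the FLA and R848 wells and 2 were themselves higher in the FLA and R848 wells. Of the 234 lower genes, 71 were also lower than in the FLA and R848 wells and 64 were themselves lower in them. At the early times the FLA and R848 wells had 0 genes higher and 0 lower than time 0, with 537 past an unadjusted p of 0.05 (edgeR; not run in DESeq2).

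KO wells given ligands whose receptors need Myd88 showed almost none of this. With Pam3Cys 0 to 2 genes passed at each time (at most 0.0241%), and with CpG 0 to 4 were higher (at most 0.0482%) and 0 or 1 lower. At 0.5 h the counts were 0 for both ligands, with 183 genes past an unadjusted p of 0.05 with Pam3Cys and 117 with CpG (edgeR; not run in DESeq2). Id3, an inhibitor of helix-loop-helix factors, passed with both ligands from 1 h on. It also rose with LPS, at 115 CPM in KO1 and 233 CPM in KO2 at 0.5 h, against at most 84.2 and 162 CPM at time 0 (log2 change 2.43, SE 0.46, adjusted p = 0.00031). In the late LPS wells it was at 16.7 to 60.3 CPM, and there it lay below the Pam3Cys and CpG wells by a log2 difference of -2.51 (SE 0.30, adjusted p = 7.9e-12).

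Compared at the same times, 172 genes were higher in LPS than in Pam3Cys and CpG wells at the early times (2.07%) and 105 lower (1.26%); at the middle times 263 were higher (3.17%) and 226 lower (2.72%), and at the late times 549 (6.61%) and 757 (9.11%). With the wells of each window summed, the late counts were 562 higher and 307 lower. With the FLA and R848 wells in place of Pam3Cys and CpG, 803 were higher late (9.67%) and 402 lower (4.84%). Nfkbia was at 2980 CPM or more in all LPS wells, against 538 to 1113 CPM in the 28 Pam3Cys and CpG wells, and the difference was 3.70 log2 units early (SE 0.13, adjusted p = 1.4e-46) and 2.23 late (SE 0.11, adjusted p = 5.6e-36). Ccl5, at 2139 and 3034 CPM in the LPS wells at 4 h, was at 21.8 to 131 CPM in the Pam3Cys and CpG wells of all times, and differed by 1.19 early (SE 0.25, adjusted p = 0.00070) and 4.90 late (SE 0.18, adjusted p = 1.1e-45). Cxcl11, a gene of the Cxcl10 chemokine family, is annotated as a polymorphic pseudogene, so only its transcript is described. It was at 50.2 to 186 CPM in KO1 and 103 to 349 CPM in KO2 in the late LPS wells. With Pam3Cys or CpG it was at 0 to 34.5 CPM at all times (late difference 6.28, SE 0.57, adjusted p = 3.4e-16). Of the lists, 32 of 39 NF-κB targets, 11 of 12 Irf3 targets and 34 of 40 secondary genes were higher late in LPS wells, with none lower.

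WT macrophages gave the response with Myd88 present. At 0.5 h, 33 of 8307 genes were higher and 0 lower than at time 0 in KO LPS wells, against 30 and 0 in WT LPS wells. At 1 h the counts were 64 higher and 40 lower in KO, against 46 and 2 in WT. At 4 h, 214 genes were higher and 101 lower in KO LPS wells, against 326 higher (3.92%) and 120 lower (1.44%) in WT LPS wells. The WT LPS wells were deeper (median 339900.5 counts, against 185638.5 in KO). The part of depth in these counts was not tested. The change from time 0 differed between KO and WT for 0 genes at the early times (116 past an unadjusted p of 0.05) and for 0 genes at the middle times (283 past it); DESeq2 also called 0 at both. At the late times the KO minus WT difference was positive for 1 gene (0.012%) and negative for 8 (0.0963%), where DESeq2 called 1 and 9. These late calls rested on the plates that entered: 27 without KO1, 14 without KO2, 1 without WT1 and 0 without WT2, against 9 with all plates. There were 0 when the wells of all 12 ligands shared the estimate of spread, 2 with the time 0 well labelled LPS alone, 5 with DESeq2's size factors and 68 with the time 0 wells as separate samples. A lack of calls does not show that the changes were equal.

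Over the 12 Irf3 targets the late difference between KO and WT changes had a median of 0.12 log2 units, where that of all genes was -0.18, and ran from -0.31 for Ifit1 to 1.91 for Ifnb1, with 0 called. Rsad2's change was 0.14 log2 units larger in KO at the late times (SE 0.38, adjusted p = 1.00), Cxcl10's 0.04 larger (SE 0.31, adjusted p = 1.00) and Ccl5's 0.12 larger (SE 0.36, adjusted p = 1.00). For Tnf the difference was 0.42 early (SE 0.46), -0.89 at the middle times (SE 0.48) and -1.54 late (SE 0.47, adjusted p = 0.69), and for Nfkbia it was 0.11 early (SE 0.27) and -0.80 late (SE 0.25, adjusted p = 0.80). The levels themselves stood further apart: over the late LPS wells 112 genes were higher in KO (1.35%) and 471 lower (5.67%). A difference of levels includes what was already present at time 0, when Tnf was among the 17 genes lower in KO. The KO and WT wells also differed in plate and in depth. Tnf was at 33.5 to 95.5 CPM in KO1 and 16.2 to 90.8 CPM in KO2 late, against 524 to 880 CPM in WT1 and 426 to 621 CPM in WT2 (log2 difference of levels -3.85, SE 0.28, adjusted p = 1.5e-20), with no overlap. Rsad2 was at 10898 to 27793 CPM in KO1 and 11491 to 26212 CPM in KO2, against 18011 to 36216 CPM in WT1 and 16290 to 35189 CPM in WT2 (log2 difference of levels -0.56, SE 0.19, adjusted p = 0.078), and these ranges overlapped.

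The gene with a positive late difference, KO minus WT, was Rgs2, a regulator of G protein signalling, which fell in WT and was not called in KO. It was at 1005 to 1588 CPM in KO1 and 1029 to 1346 CPM in KO2 at 2.5 to 4 h, against 274 to 324 CPM in WT1 and 268 to 287 CPM in WT2, while at time 0 the medians were 1309 and 1567 CPM in KO and 1298 and 1253 CPM in WT. Its late log2 change was -0.05 in KO (SE 0.20, adjusted p = 0.94) and -1.85 in WT (SE 0.19, adjusted p = 1.8e-13), and the difference was 1.80 (SE 0.30, adjusted p = 0.00012). Cp, the copper oxidase ceruloplasmin, was at 186 CPM in KO1 and 108 CPM in KO2 at 4 h, against 1962 CPM in WT1 and 1934 CPM in WT2 (difference of the late changes -2.41, SE 0.49, adjusted p = 0.015). Pou2f2, the lymphoid and macrophage factor Oct-2, was at 44.6 CPM in KO1 and 0 CPM in KO2 at 4 h, against 618 CPM in WT1 and 404 CPM in WT2 (difference -3.20, SE 0.66, adjusted p = 0.015). Ccl3, a macrophage chemokine, was at 141 and 232 CPM at 4 h in KO, against 1611 and 1625 CPM in WT (difference -1.87, SE 0.41, adjusted p = 0.024).

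**Figure D5:**
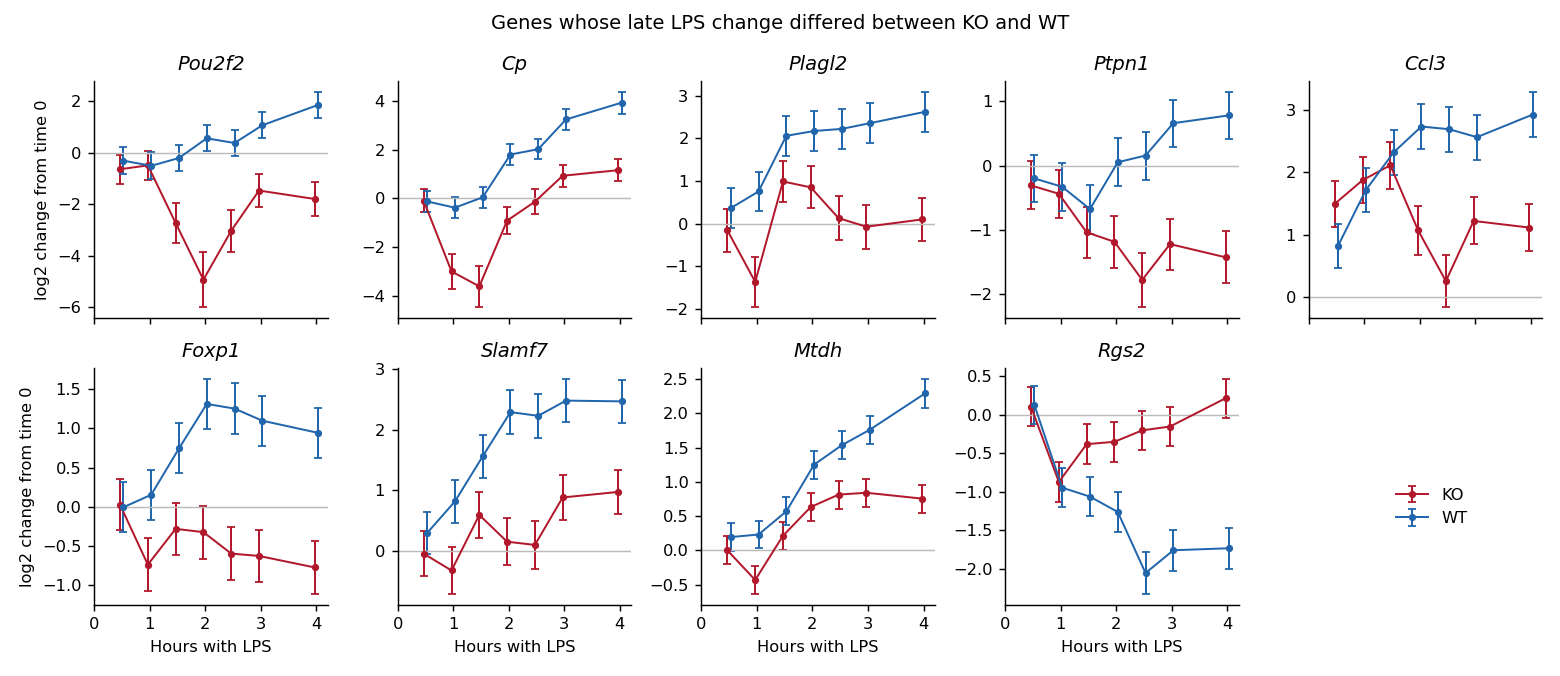
Log2 change from time 0 (points, bars 1 SE) by hours with LPS in KO (red) and WT (blue) wells, for the 9 genes whose late change differed between the genotypes. At the late times Rgs2 lies near 0 in KO and below 0 in WT, and for the other 8 genes KO lies below WT.

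The FLA and R848 wells moved the same way for part of these. In the FLA and R848 wells, late against time 0, the log2 change was -2.48 for Pou2f2 (adjusted p = 0.0030), -3.32 for Cp (adjusted p = 0.011), -2.76 for Plagl2 (adjusted p = 0.0023), -1.94 for Ptpn1 (adjusted p = 4.1e-05), -1.04 for Foxp1 (adjusted p = 0.030) and -0.98 for Mtdh (adjusted p = 0.014). For Ccl3 it was 0.26 (adjusted p = 0.71), for Slamf7 -0.90 (adjusted p = 0.18), and for Rgs2, whose difference runs the other way, -0.95 (adjusted p = 0.045). The part of depth in these calls was not tested.

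The promoters of the risers were compared by peak time as a description. Of the genes with a single RefSeq promoter, the response element core was found in 3.7% of 27 genes peaking at 0.5 or 1 h, 10.0% of 30 peaking at 1.5 or 2 h, 7.14% of 14 peaking at 2.5 h and 23.2% of 125 peaking at 3 or 4 h. It was found in 3.6% of 5030 tested genes and in 3.44% of all 32851 promoters. The NF-κB motif was found in 44.4%, 26.7%, 42.9% and 29.6% of the same peak groups, in 25.6% of tested genes and in 20.7% of all promoters. The AP-1 motif was found in 0 of the 27 genes peaking first, in 3.33% and 0 of the next groups and in 13.6% of the last, against 4.65% of tested genes and 7.81% of all promoters. Motif matches are letters in a 300-base window and are no sites in themselves.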

How the data were processed

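The deposited table holds raw 3′ tag counts per gene and well, made by the authors and not normalized, per the file's values; BWA and mm10 are named in the submitters' processing notes, without versions. Counts were tested with edgeR 4.0.16 in R 4.3.3 (quasi-likelihood, robust, TMM scaling, filterByExpr with a minimum count of 10), and p-values were adjusted by Benjamini-Hochberg over 8307 genes at a threshold of 0.05. One fit held 60 profiles in 30 groups: LPS wells of KO and WT, Pam3Cys and CpG wells of KO, and the 12 time 0 wells of each plate summed. It fitted group means without a plate term, so plates were not paired in the main tests. Early, middle and late mean 0.5 and 1 h, 1.5 and 2 h, and 2.5, 3 and 4 h. Alternatives included DESeq2 1.42.0, other time 0 wells and each plate left out. The test was first tried on simulated counts with 200 genes changed alike in all KO LPS wells. At 4 h it called 20% of the 4-fold and 1% of the 2-fold changes, and 1 unchanged gene. Over all times it called 33% and 2%, and 5 unchanged genes. Most changes of these sizes were thus missed. No 2 replicate wells held identical values.

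Members, gene lists and tests were chosen with earlier results of these data known. Named genes were a fixed set, the genes with the largest changes past the threshold on both sides, and up to 4 per list by smallest p. The largest changes were taken among genes with 30 or more counts that moved the same way on both plates. Slamf7 and Mtdh were named after their values were seen, and Cxcl3 and Dtx3l were also named outside these rules. Other list members are named only where the calls of a list are given. Peak times used the mean log2(CPM + 1) of the plates over the 330 genes that rose at any time, a wider set than the one first planned. The comparisons of KO and WT levels, of Pam3Cys and CpG wells with time 0 and of the FLA and R848 wells were added after seeing the data.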

Additional observations from a re-analysis of the deposited data

Results flagged for a closer look

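The late change with LPS differed between KO and WT wells for 9 genes by the test of the difference itself (edgeR, adjusted p under 0.05), all in log2 units of KO minus WT. The difference was 1.80 for Rgs2, -3.20 for Pou2f2, -2.41 for Cp, -2.35 for Plagl2, -2.01 for Ptpn1, -1.87 for Ccl3, -1.77 for Foxp1, -1.74 for Slamf7 and -1.06 for Mtdh. In the LPS-free FLA and R848 wells of KO the late log2 change from time 0 was -0.95 for Rgs2, -2.48 for Pou2f2, -3.32 for Cp, -2.76 for Plagl2, -1.94 for Ptpn1, 0.26 for Ccl3, -1.04 for Foxp1, -0.90 for Slamf7 and -0.98 for Mtdh. The part of depth in these differences was not tested, and genotype cannot be told apart from plate.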

How the results depend on the processing

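Over 16 alternatives, 666 calls of named genes gave 8877 values, of which 7813 kept direction and side of the threshold, 1050 kept direction and lost the call, and 14 reversed. The alternatives differed widely. With the plate as a replicate block 660 of 666 values were kept. With the time 0 well labelled LPS alone 282 of 417 were kept, and with time 0 wells under 250000 counts 299 of 408. With the FLA and R848 wells as the comparison 68 of 108 were kept, 31 were lost and 9 reversed. Without KO1, log2 values reversed for 5 genes. Over the plates left out in turn, with KO1 at one end and KO2 at the other, they ran from -0.46 to 4.19 for Cxcl1 at 1 h, from -4.15 to 4.18 for Il12b at 2.5 h, from -1.14 to 5.37 for Lipg at 3 h, from 0.94 to -7.93 for Lpin1 late minus early, and from -1.04 to 4.88 for Nfkbiz in late LPS minus Pam3Cys and CpG. With FLA and R848 wells as the comparison, late values reversed for Zfp780b (0.034), Gbp4 (-0.48), Pou2f2 (0.33), Ptpn1 (0.41), Foxp1 (0.32), Tnf (-1.05), Cx3cr1 (0.63), Gclc (1.32) and Atf4 (0.067). The cause was not tested.

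Counts of calls moved by over 1.5 times as follows. The DESeq2 test called 1544 genes over all times, 200 at 1 h, 176 at 1.5 h and 298 at 2.5 h. It gave no adjusted p for 484 of 8307 genes over all times, 5476 at 1 h and 3543 at 1.5 h. Its counts there are thus adjusted over fewer genes than those of edgeR. With only the groups compared in the fit, there were 362 over all times, 69 at 1.5 h, 92 at 2 h, 107 at 2.5 h, 175 at 3 h, 187 at 4 h, 309 late minus early, 141 for 4 h minus middle and 3 for the middle KO minus WT change. Wells of all 12 ligands gave 55 at 1 h, 120 at 2.5 h and 0 for the late KO minus WT change. The time 0 well labelled LPS alone gave 17, 28, 73, 92 and 87 at 0.5, 1, 1.5, 2 and 2.5 h, and 2 for the late KO minus WT change. Time 0 wells as separate samples gave 1421 over all times, 173, 220, 292, 346, 600 and 590 from 1 to 4 h, and 7 middle and 68 late KO minus WT. Size factors gave 5 late KO minus WT, no filter gave 3 middle, and summed windows gave 4 middle and 869 for late LPS minus Pam3Cys and CpG. Time 0 wells under 250000 counts gave 52 at 1 h, 37 higher and 15 lower.

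Leaving out 1 plate at a time gave 516 to 1675 genes over all times, 28 to 61 at 0.5 h, 63 to 267 at 1 h, 88 to 132 at 1.5 h, 106 to 181 at 2 h, 137 to 210 at 2.5 h, 234 to 323 at 3 h, 243 to 291 at 4 h, 423 to 760 late minus early and 175 to 278 for 4 h minus middle. It gave 0 to 48 early, 0 to 5 middle and 0 to 27 late for KO minus WT, and 1013 to 1157 for late LPS minus Pam3Cys and CpG. The lone plate is then assumed to vary like the other groups. With the plate as a replicate block, 876 genes were called over all times, 32, 135, 140, 189, 218, 351 and 359 from 0.5 to 4 h, 627 late minus early, 265 for 4 h minus middle, 0 early, 0 middle and 9 late for KO minus WT, and 1356 for late LPS minus Pam3Cys and CpG. Deviations of wells of one plate had a median correlation of 0.0233 in KO. How depth limits a call by count level was not tested.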
